A study of Oncorhynchus mykiss with 6 samples.

Results

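Of the 41818 loci in a count table of rainbow trout (Oncorhynchus mykiss) dorsal skin, 59 carried reads in essentially one of 2 colour phenotypes. A locus was taken when its reads, summed over the 3 libraries of each phenotype, came to at most 3 in one phenotype and at least 60 in the other. These thresholds were met by 63 loci, and 4 of them were set aside because their product names hold the words TRIM25, GTPase IMAP, NLRC3, histocompatibility, keratin, mucin or lectin. Of the 59 remaining loci, 34 were counted in the wild type and the other 25 in the yellow mutant. The loci were thus chosen by their measured counts in these 6 libraries, and the difference of each of these loci between the phenotypes is given below as a description, without a test.

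The study compared the skin of wild-type trout with that of a yellow colour mutant by RNA sequencing. Both groups were 45 days old, each gave 3 libraries, and the labels name no treatment, strain or causal allele for either. Whether each library came from its own fish is not stated in the labels, and p-values below reflect the library-to-library spread alone, part of which may be technical.

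Salmonid fishes descend from an ancestor whose whole genome was duplicated, after an older duplication shared by teleost fishes. Many of their genes are therefore present as several similar copies (paralogs), which can be used in different tissues, differ in sequence between strains, or be missing from some strains. Mobile elements such as Tc1-like transposons and endogenous retroviruses are also abundant in fish genomes and differ in position between individuals. The handling of reads that match several copies, the strand setting and the counting tool were not given in the sources read. A change in the RNA of a locus and the assignment of its reads to another copy cannot be told apart in such counts, and the same holds for a sequence difference that keeps reads from aligning.

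The libraries held 15059101 to 19031878 counts. Levels are given as CPM, read counts relative to the library size scaled with TMM factors, as mean ± SD with n = 3 libraries. The edgeR quasi-likelihood test was run on the 30691 loci that passed a filter on low counts, and 13737 of them (44.8%) differed between the phenotypes at an adjusted p under 0.05. Split by direction, 21.7% of all tested loci were higher in the yellow mutant and 23.1% were lower. Among skin markers, the summed level of 27 keratinocyte loci was 49250 to 50931 CPM in the wild type and 20652 to 22949 CPM in the yellow mutant, with no locus found under the symbols KRT5 and EPCAM. The summed level of 18 dermal fibroblast loci was 62369 to 70794 CPM and 50478 to 54785 CPM, and that of 13 melanophore loci was 493 to 583 CPM and 1111 to 1322 CPM. In bulk skin, fewer cells of a type and less RNA per cell cannot be told apart, and the part of such shifts in the 59 loci was not tested. Wild-type replicate 2 stood apart from the other 5 libraries in genes known from kidney tubules, as given at the end. Without it 23 loci in place of 34 met the rule in the wild-type direction. Without wild-type replicate 1 or 3 the number was 26 or 27, since the thresholds on sums were kept.

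Most of the 59 loci were sparsely counted but present in all libraries of their phenotype. The sum over the 3 libraries ran from 60 to 787 counts, with a median of 112, and lay under 200 in 48 loci. In the other phenotype the sum was 0 at 29 loci, 1 at 12, 2 at 11 and 3 at 7. Per length, the level in the counted phenotype lay between 0.257 and 52.0 FPKM (fragments per unit of gene length and of library size) with a median of 1.36 FPKM. The filter on low counts was passed by 47 of the 59 loci, 25 of them wild-type loci and 22 yellow mutant loci. Of the 59, 43 carry NCBI gene numbers and 16 are transcripts assembled outside that annotation, with MSTRG identifiers.

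By words in their product names, the loci fell into several functional groups. Names with words for enzymes made up 8 (5 wild-type loci and 3 yellow mutant loci) and those for transporters and translocases 4 (all in the wild type). Of the transporters, slc22a6, SLC22A2 and slc47a1 had 75.7% to 80.6% of their wild-type reads in replicate 2. Words for receptors and other signalling proteins were held by 4 (2 and 2), and words for proteases by 2 (both in the wild type). The latter were KLK9 and DPP10, an inactive peptidase, while the protease C1R held none of these words. Names with words for mobile elements made up 3 (1 and 2), cytoskeleton and adhesion proteins 2 (1 and 1), and names with words for immune proteins 1 (yellow mutant, by the word immunoglobulin). The yellow mutant locus ncbi_110490146, with the symbol gag-pol, was not among the mobile elements, as its product name is NYNRIN-like. Names with words for transcription and chromatin were held by 1 wild-type locus, 11 loci were uncharacterized or unnamed (5 and 6), and 23 held none of these words (13 and 10). No product name had loci in both directions (0).

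**Figure D1:**
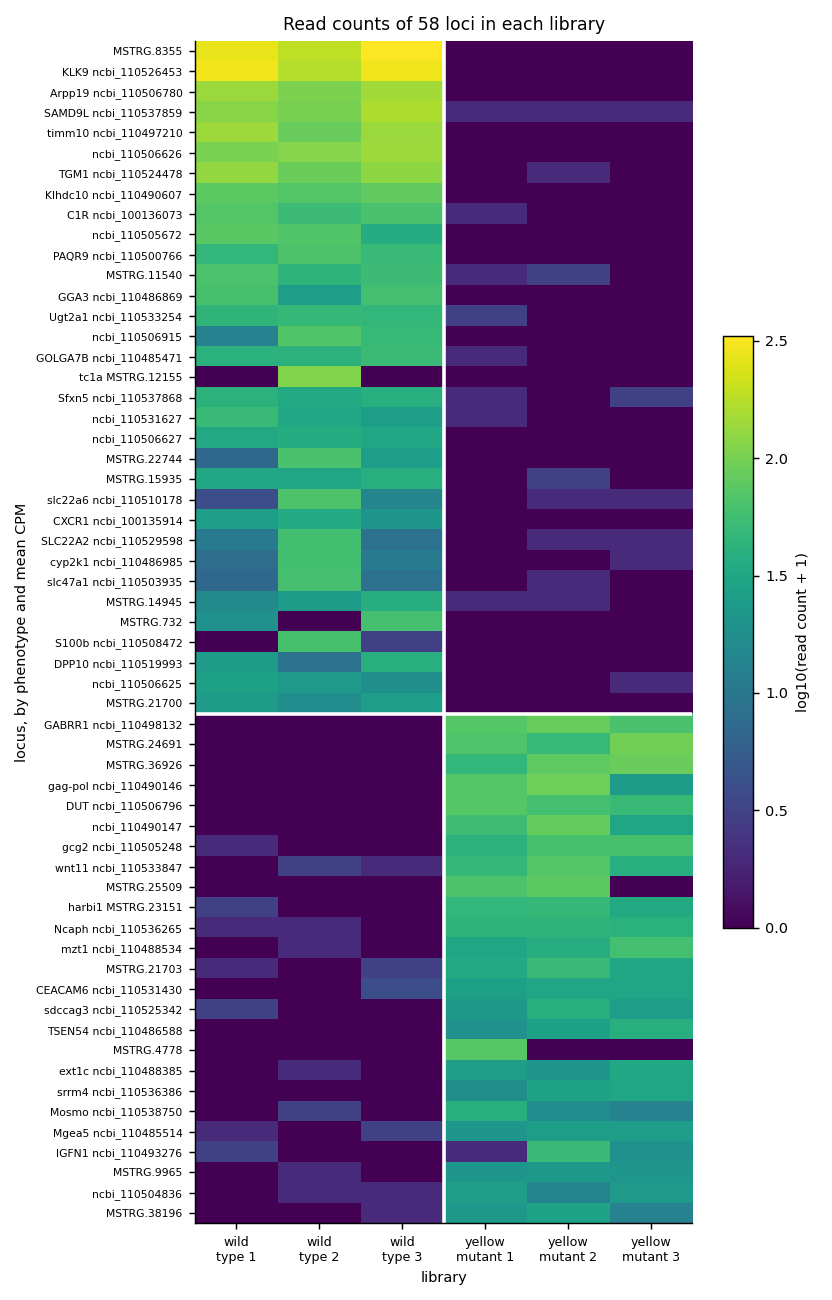
Heat map of read counts as log10(count + 1), with 58 of the 59 loci in rows, ordered by phenotype and mean CPM, and the 6 libraries in columns. The wild-type block above the white line and the yellow mutant block below it are filled where the other phenotype is at 0 to 3 counts, and single bright cells mark loci counted in 1 library, such as tc1a MSTRG.12155 in wild-type replicate 2.

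Among the loci counted in the wild type, the highest counts were at 2 loci with no read in the yellow mutant. The assembled locus MSTRG.8355, named for a match to a scallop DEF1-like transcriptional regulator, had 271, 187 and 329 counts in wild-type replicates 1 to 3. Its level was 16.5 ± 3.28 CPM, at least 318-fold above a floor of 3 counts over the yellow mutant group. KLK9 (ncbi_110526453), whose product name is trypsin-3-like, a serine protease, had 290, 172 and 289 counts against 0 in each yellow mutant library, at 15.7 ± 2.94 CPM. Its fold was at least 303. Its symbol, that of a kallikrein, and its product name point to different members of the serine protease family.

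Genes with roles in enzyme action and the skin surface followed. TGM1 (ncbi_110524478), named for transglutaminase K, which crosslinks proteins of the cornified envelope in mammalian epidermis, had 127, 89 and 122 wild-type counts against 0, 1 and 0 in the yellow mutant. The scaled ratio was 410, with an exact 95% counting interval from 73.0 to 16224, so its size was poorly fixed by 1 read. Ugt2a1 (ncbi_110533254), one of the enzymes that attach glucuronic acid to lipophilic compounds, had 43, 47 and 45 counts against 2, 0 and 0, a ratio of 81.8 (22.2 to 682). C1R (ncbi_100136073), the protease that starts the classical complement cascade, had 69, 52 and 62 counts against 1, 0 and 0. For this locus the ratio was 222 (39.3 to 8806).

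Proteins of the mitochondrion, the cell cycle and ubiquitin ligases were also in this direction. Arpp19 (ncbi_110506780), a small phosphoprotein that inhibits a protein phosphatase as cells enter mitosis, had 138, 104 and 146 counts against 0 in each yellow mutant library, at 8.17 ± 0.701 CPM and at least 157-fold. The Tim10 locus timm10 (ncbi_110497210), for a chaperone that guides proteins to the inner mitochondrial membrane, had 141, 87 and 136 counts against 0, at 7.62 ± 1.21 CPM and at least 147-fold. Klhdc10 (ncbi_110490607), a substrate receptor of a ubiquitin ligase, had 75, 69 and 80 counts against 0, at least 90.5-fold. In these 3 loci the wild-type libraries lay close together, the highest at most 1.35 times the lowest in CPM. Sfxn5 (ncbi_110537868), a mitochondrial carrier of the sideroflexin family, had 41, 33 and 38 counts against 1, 0 and 2, a ratio of 45.2 (15.1 to 223).

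Receptors, trafficking proteins and an antiviral factor completed the named wild-type loci. SAMD9L (ncbi_110537859), an interferon-inducible restraint on viruses and growth in mammals, had 116, 99 and 162 counts against 1 in each yellow mutant library, a ratio of 152 (51.7 to 742). PAQR9 (ncbi_110500766), of a family of membrane progestin and adiponectin receptors, had 45, 64 and 49 counts against 0, at least 63.8-fold. CXCR1 (ncbi_100135914), with the product name IL-8 receptor, a chemokine receptor of neutrophils, had 25, 34 and 20 counts against 0, at least 31.9-fold. All 3 of these loci were counted in every wild-type library. GGA3 (ncbi_110486869), an adaptor for clathrin-coated vesicles at the Golgi, had 60, 25 and 57 counts against 0, at least 57.4-fold. GOLGA7B (ncbi_110485471), which stabilises a palmitoylating enzyme, had 40, 41 and 51 counts against 1, 0 and 0, a ratio of 160 (28.2 to 6365). A locus named for the cilium protein CEP290 (ncbi_110505672) had 74, 67 and 35 counts against 0, at least 71.1-fold, and replicate 3 was the lowest of its wild-type libraries.

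A group of 3 uncharacterized loci shared one product name and lay together. ncbi_110506626 had 102, 114 and 139 counts against 0, ncbi_110506627 had 32, 35 and 31 against 0, and ncbi_110506625 had 26, 22 and 17 against 0, 0 and 1. In the order of the RefSeq gene table of assembly USDA_OmykA_1.1 they were 1 to 3 places apart, and no other row of the count table holds their product name. Their nearest tested neighbours, SPON1 at 3 to 6 places on one side and Ppfibp2 at 6 to 9 places on the other, went the other way. SPON1 (ncbi_110506631), a secreted matrix protein gene, rose by 0.51 on the log2 scale (SE 0.097, edgeR adjusted p = 0.00089), and Ppfibp2 (ncbi_110506624), a liprin, rose by 1.0 (SE 0.084, edgeR adjusted p = 8.82e-07).

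The highest sum among loci counted in the yellow mutant was that of a neurotransmitter receptor subunit. GABRR1 (ncbi_110498132), the rho-1 subunit of a GABA-gated chloride channel, had 71, 84 and 61 counts in yellow mutant replicates 1 to 3 and 0 in each wild-type library, at 3.78 ± 0.569 CPM. It was at least 59.4-fold higher. The gene gcg2 (ncbi_110505248), for proglucagon, the precursor of glucagon and related gut hormones, had 41, 60 and 60 counts against 1, 0 and 0 in the wild type, a ratio of 133 (23.5 to 5280). The Wnt ligand gene wnt11 (ncbi_110533847), which guides cell movements in embryos, had 47, 69 and 38 counts against 0, 2 and 1. These 3 loci, for secreted signals and a receptor, had reads in each yellow mutant library.

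Genes of nucleotide metabolism, RNA processing and sugar modification were counted in the yellow mutant as well. DUT (ncbi_110506796), which breaks down dUTP and so keeps uracil out of DNA, had 71, 57 and 49 counts against 0, at 3.13 ± 0.852 CPM and at least 48.7-fold. TSEN54 (ncbi_110486588), a subunit of the endonuclease that splices transfer RNA, had 18, 26 and 37 counts against 0, at least 22.3-fold. The splicing factor gene srrm4 (ncbi_110536386), known from neurons, had 17, 28 and 30 counts against 0, at least 20.6-fold. Mgea5 (ncbi_110485514), for the enzyme that removes O-linked N-acetylglucosamine from proteins, had 20, 24 and 24 counts against 1, 0 and 2. With 3 wild-type counts its ratio of 18.7 (6.14 to 93.0) was the lowest among loci with reads in both phenotypes. The gene ext1c (ncbi_110488385), of the exostosin family that builds heparan sulfate chains, had 25, 20 and 31 counts against 0, 1 and 0.

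Chromosome and spindle proteins formed a further pair in the yellow mutant. Ncaph (ncbi_110536265), a subunit of the condensin complex that compacts chromosomes, had 42, 42 and 40 counts against 1, 1 and 0, a ratio of 51.2 (13.9 to 427). The spindle gene mzt1 (ncbi_110488534), for a small component of the gamma-tubulin ring complex that nucleates microtubules, had 29, 36 and 57 counts against 0, 1 and 0, a ratio of 101 (17.7 to 4009). Both loci were present in each yellow mutant library. A locus with the symbol CEACAM6 and the product name fibroblast growth factor receptor 3-like (ncbi_110531430) had 26, 29 and 30 counts against 0, 0 and 3. Its symbol and product name name different proteins.

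Sequences related to mobile elements were counted in the yellow mutant at loci with consecutive NCBI gene numbers. ncbi_110490146, with the symbol gag-pol and the product name NYNRIN-like, a name for a gene derived from a retroelement, had 70, 91 and 23 counts against 0, at least 50.6-fold. ncbi_110490147, named for a retroviral envelope polyprotein, had 53, 82 and 29 counts against 0, at least 45.1-fold. In both loci yellow mutant replicate 2 was the highest and replicate 3 the lowest library, and neither number was found in the RefSeq table. The assembled locus MSTRG.23151 (harbi1), named for a nuclease related to Harbinger transposases, had 46, 47 and 33 counts against 2, 0 and 0, a ratio of 52.0 (14.1 to 434). MSTRG.21703, named NLR family CARD domain-containing protein 3-like, a kind of intracellular immune receptor, had 34, 49 and 31 counts against 1, 0 and 2. Its name spells out NLRC3, so the word used to set loci aside did not match it. The unnamed loci MSTRG.24691 and MSTRG.36926 had 208 and 211 counts in all against 0.

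Uneven counts among libraries marked several of the remaining loci. IGFN1 (ncbi_110493276), an immunoglobulin and fibronectin domain protein of muscle, had 1, 50 and 18 yellow mutant counts against 2, 0 and 0, so its phenotypes overlapped. A myosin heavy chain locus (ncbi_110506915) had 12, 67 and 48 wild-type counts against 0, and the golgin-named MSTRG.22744 had 6, 62 and 24 against 0. In these 3 loci replicate 2 was the highest library. The summed level of 80 skeletal muscle loci was 27470 to 32053 CPM in the wild type, highest in replicate 2, and 17377 to 25942 CPM in the yellow mutant, and its part in IGFN1 and the myosin locus was not tested. DPP10 (ncbi_110519993), an inactive peptidase that modulates potassium channels, had 23, 8 and 38 wild-type counts against 0. A TRIM34A-like locus (ncbi_110531627) had 50, 31 and 25 against 1, 0 and 0. The unnamed MSTRG.732 had 18, 0 and 58 against 0, with no read in wild-type replicate 2. MSTRG.15935 and MSTRG.14945, named for proteins of a spore coat and of the malaria parasite, had 98 and 74 wild-type counts in all against 2 and 2. In the yellow mutant, sdccag3 (ncbi_110525342), an endosomal protein, had 21, 38 and 25 counts against 2, 0 and 0.

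The thresholds separated loci with near-identical counts. Just inside the upper one were MSTRG.9965 and MSTRG.38196 with 61 yellow mutant counts each, ncbi_110504836 (hepatocyte cell adhesion molecule-like) with 60, and S100b (ncbi_110508472) with 62 in the wild type. Just outside it were BCO2 (ncbi_110525113), a carotenoid-cleaving oxygenase gene with 59 yellow mutant counts against 3, MSTRG.17506 with 59 and RAPGEF4 (ncbi_110530658) with 58 yellow mutant counts, and MSTRG.11605 with 59 wild-type counts against 0. The lower threshold took in 7 loci with 3 counts and left out 16 with 4. Among those left out, PRSS27 (ncbi_110522135), a serine protease gene, had 357 wild-type counts and MSTRG.1197 had 326 yellow mutant counts.

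Whether a locus counted in one phenotype had a counterpart with the same product name was examined next. Of the 59 loci, 11 had an uncharacterized, unnamed or empty product name and were not matched. Mosmo (ncbi_110538750) was among these 11, since its product name is uncharacterized protein C16orf52 homolog, which 2 rows hold. Of the rest, 27 had other rows of the same product name, and 21 had a product name that no other row holds. For 26 product names with at most 10 rows there were 56 other loci, of which 35 could be tested. In the edgeR test 14 of the 35 differed in the direction of their counterpart among the 59, 9 differed in the opposite direction and 12 did not pass. The called share was 65.7%, against 44.8% of all tested loci, and the median log2 fold change was -0.11 against -0.0029. Of the 23 calls, 7 were higher in the yellow mutant and 16 were lower, and 8 of the lower ones carried the DEF1-like and the SAMD9-like product names. Beside the 16 wild-type product names, 11 of 23 tested loci went the same way and 4 the opposite way. Beside the 10 yellow mutant product names, 3 of 12 went the same way and 5 the opposite way, and the difference between these splits was not tested. The split of 14 to 9 depended on the matching of names. It became 21 in the same direction and 24 opposite with names stripped of suffixes, and 17 and 16 with matching by symbol.

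**Figure D2:**
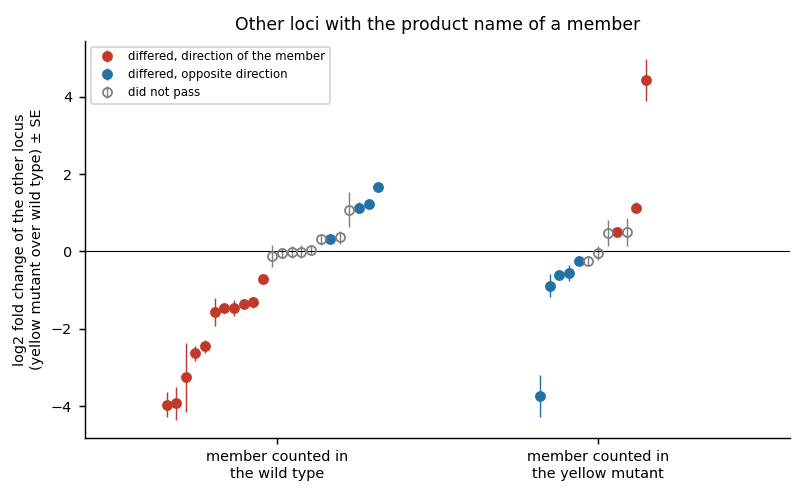
Log2 fold change (yellow mutant over wild type) with its SE for the 35 tested loci that share a product name with one of the 59 (called a member in the plot), split by the phenotype in which that one was counted. Filled red points passed the test in the direction of their counterpart (14), filled blue points in the opposite direction (9), and open points did not pass (12).

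For proglucagon the reads of the phenotypes lay mainly at different loci. The locus ncbi_110505248 was counted in the yellow mutant and the other gcg2 locus (ncbi_110501499) mainly in the wild type, with 30, 20 and 20 counts there and 2, 4 and 0 in the yellow mutant. This second locus fell by 3.73 on the log2 scale (SE 0.55, edgeR adjusted p = 0.000109), with -4.58 without yellow mutant replicate 2. Summed over both loci, proglucagon counts were 1.5 ± 0.324 CPM in the wild type and 2.90 ± 0.357 CPM in the yellow mutant, a ratio of 1.93. A further locus with the symbol gcg2 (ncbi_100136748) had 0 counts in all 6 libraries.

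The Tim10 pair had most of its reads at the second locus in both phenotypes, and the locus counted in the wild type made up 29.3% of the wild-type sum. This second timm10 locus (ncbi_110497209) had 308, 248 and 314 wild-type counts against 963, 1185 and 1188 in the yellow mutant. Its mean of 18.4 ± 0.633 CPM rose to 58.2 ± 2.58 CPM (log2 fold change 1.66, SE 0.079, edgeR adjusted p = 8.89e-09), while the first locus was at 0 in the yellow mutant. The sum over both was 26.0 ± 1.77 and 58.2 ± 2.58 CPM, 2.24 times as high in the yellow mutant. The 2 loci have adjacent NCBI gene numbers.

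The Golgi adaptor GGA3 had 4 further loci. Of these ncbi_110486867, at 6.85 ± 1.71 and 14.9 ± 0.884 CPM, rose by 1.13 on the log2 scale (SE 0.15, edgeR adjusted p = 5.29e-05), opposite to the wild-type locus ncbi_110486869. The loci ncbi_110485812 and ncbi_110493558 did not pass, at 0.31 (SE 0.15) and -0.0027 (SE 0.16), and ncbi_110485241 was not tested, with 5 and 8 counts. The summed level was 19.7 ± 1.52 CPM in the wild type and 26.1 ± 0.954 CPM in the yellow mutant, a ratio of 1.32.

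For the spindle gene mzt1, the assembled locus MSTRG.10132 had 143, 111 and 154 wild-type counts against 102, 121 and 100 in the yellow mutant. At 8.60 ± 0.693 and 5.65 ± 0.456 CPM, it fell by 0.61 on the log2 scale (SE 0.13, edgeR adjusted p = 0.00236). Together with the yellow mutant locus the sum was 8.62 ± 0.660 CPM and 7.76 ± 0.242 CPM, with overlapping libraries and a ratio of 1.11. The second TSEN54 locus (ncbi_110538547), at 6.59 ± 1.29 and 4.41 ± 1.05 CPM, stood at -0.56 (SE 0.20, edgeR adjusted p = 0.0351). Its libraries overlapped between the phenotypes, and the call was lost without any one of 4 libraries (adjusted p = 0.141 and 0.0934 without wild-type replicates 2 and 3, and 0.126 and 0.065 without yellow mutant replicates 1 and 3).

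**Figure D3:**
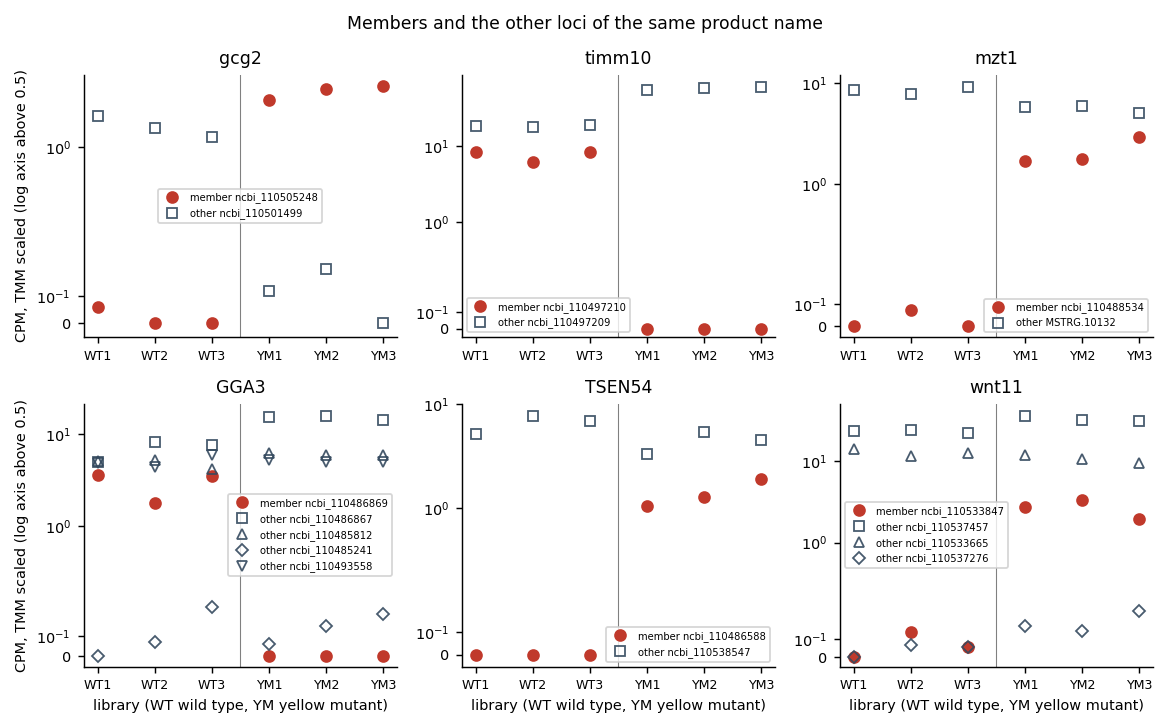
CPM in each of the 6 libraries (linear below 0.5, logarithmic above) for 6 product names, with the locus counted in one phenotype (the member) as filled red points and the other loci of that name as open symbols. All of these names but wnt11 have a locus that differed in the opposite direction. Names that moved as a family, such as the DEF1-like and SAMD9-like ones, are not drawn. At gcg2 the filled and open symbols change places between the phenotypes, and at timm10 the open symbols rise from 18.4 to 58.2 CPM on average where the filled ones reach 0.

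A further 4 loci made up the rest of the 9 opposite ones. MSTRG.60, of a golgin-like product name shared with the wild-type locus MSTRG.22744, rose by 1.23 from 59.1 ± 2.96 to 139 ± 9.0 CPM (SE 0.080, edgeR adjusted p = 9.81e-08). MSTRG.22744 itself had 67.4% of its wild-type reads in replicate 2 and made up 1.84% of the summed wild-type level of the name. MSTRG.32018 of the same name stood at 0.32 (edgeR adjusted p = 0.0169), with adjusted p = 0.0698 and 0.0535 without wild-type replicates 1 and 2. MSTRG.32017, also of this name, fell by 1.36 (SE 0.10), so the golgin-like name held calls in both directions. MSTRG.17026, the other HARBI1-named locus, stood at -0.89 (SE 0.30, edgeR adjusted p = 0.0267), and its call was lost with wild-type replicate 1 or 3 left out (adjusted p = 0.118 and 0.0671), as with yellow mutant replicate 2 or 3 (0.102 and 0.0679). ncbi_110534770, a fibroblast growth factor receptor 3-like locus, was at the threshold (-0.26, edgeR adjusted p = 0.0493) and was lost without wild-type replicates 1 or 2 (0.160 and 0.125) and without yellow mutant replicates 1 or 2 (0.0799 and 0.200). Of the 2 further loci of that name, ncbi_110534772 rose by 1.13 (SE 0.14), and ncbi_110527324 did not pass.

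Other product names moved as a family. Of 5 further DEF1-like loci, 4 fell beside MSTRG.8355. They were MSTRG.8248 (log2 fold change -3.96, SE 0.32), MSTRG.21586 (-2.63, SE 0.20), MSTRG.21558 (-2.45, SE 0.17) and MSTRG.23515 (-1.47, SE 0.20), while MSTRG.3141 did not pass (-0.11, SE 0.28). The summed level of the 6 loci was 47.5 ± 8.0 CPM in the wild type and 7.40 ± 0.704 CPM in the yellow mutant, a ratio of 6.42. Of 7 further SAMD9-like loci 5 were tested, and 4 fell, with log2 fold changes of -1.55 (ncbi_110532925, SE 0.36), -1.47 (ncbi_110486057, SE 0.11), -1.32 (ncbi_110510252, SE 0.14) and -0.70 (ncbi_110486909, SE 0.096). The locus ncbi_110538771 of this name did not pass (0.047, SE 0.10). Over the 8 SAMD9-like loci the sum was 109 ± 3.40 and 56.5 ± 2.60 CPM, a ratio of 1.93.

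In pairs with adjacent NCBI gene numbers both loci could go the same way. The second GOLGA7B locus (ncbi_110485470) had 37, 50 and 54 counts against 2, 7 and 2 and fell by 3.92 (SE 0.42, edgeR adjusted p = 7.13e-06), with -4.69 without yellow mutant replicate 2. The second Ugt2a1 locus (ncbi_110533255) had 20, 15 and 10 counts against 0, 2 and 0 and was too sparse to test. With both loci of each pair summed, GOLGA7B was at 5.82 ± 1.07 and 0.206 ± 0.123 CPM and Ugt2a1 at 3.84 ± 0.558 and 0.0712 ± 0.0623 CPM. For Klhdc10 the adjacent locus (ncbi_110490608) did not pass (-0.046, SE 0.13), and the sum was 1.45 times as high in the wild type.

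Among yellow mutant loci the retroviral envelope name was held by 4 further loci. ncbi_110500403 had 41, 43 and 29 yellow mutant counts against 2, 2 and 0, just outside the lower threshold, and rose by 4.43 (SE 0.54, edgeR adjusted p = 2.26e-05). ncbi_110505513 and ncbi_110503969 did not pass, and ncbi_110489625 was too sparse to test. Of the further wnt11 loci, ncbi_110537457 rose by 0.49 (SE 0.087, edgeR adjusted p = 0.000483), from 23.4 ± 1.11 to 33.0 ± 2.82 CPM, and ncbi_110533665 did not pass (-0.23, SE 0.12). The locus ncbi_110533847 made up 5.75% of the summed yellow mutant counts of the wnt11 product name. In the transglutaminase pair the second locus (ncbi_110508468) did not pass (0.37, SE 0.17, edgeR adjusted p = 0.0934). More abundant loci share the symbol TGM1 and not the product name, and they were lower in the yellow mutant. Of these ncbi_110521601 went from 62.4 to 28.5 CPM (-1.13, SE 0.15, edgeR adjusted p = 5.68e-05). The other, ncbi_110530625, went from 20.5 to 15.1 CPM (-0.44, SE 0.098, edgeR adjusted p = 0.00253). In the IL-8 receptor group ncbi_110495453 did not pass (1.08, SE 0.45, edgeR adjusted p = 0.0678) and reached 1.61 with wild-type replicate 3 left out (adjusted p = 0.0286).

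The reads of all loci of a name were summed for each of the 26 product names. The summed ratio was under 1.5 in 8 names, and the libraries of the phenotypes overlapped in 5. At the other end it reached 36.1 for C1R, 54.0 for Ugt2a1 and 55.2 for slc47a1, whose wild-type reads lay mostly in replicate 2. The srrm4 sum was 0 in the wild type, so it had no ratio. Each sum includes the chosen locus, so separation of the phenotypes follows in part from the choice and was not tested. In 6 names the chosen locus made up over 90% of the sum within its own phenotype, among them C1R (95.1% in the wild type) and gcg2 (96.4% in the yellow mutant). The loci of a name can differ in length, so these sums are of reads and not of transcripts.

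Matching by gene symbol in place of product name gave a further 62 loci that share a symbol and not a product name, and 43 were tested. Of these 13 differed in the direction of their counterpart, 11 in the opposite direction and 19 did not pass, a called share of 55.8% against 44.8% of all tested loci. The second DUT locus (ncbi_110506799) was at 38.4 ± 2.21 and 31.4 ± 4.21 CPM. Its log2 fold change of -0.29 (SE 0.098, edgeR adjusted p = 0.0277) missed the threshold with wild-type replicate 2 or 3 left out (adjusted p = 0.0976 and 0.0751), and also with yellow mutant replicate 1 or 2 left out (0.090 and 0.126). The second Ncaph locus (ncbi_110525879) fell by 0.52, from 33.2 ± 2.15 to 23.2 ± 2.67 CPM (SE 0.096, edgeR adjusted p = 0.000675). Of the 2 further Arpp19 loci, ncbi_110500919 rose by 0.60 (SE 0.14, edgeR adjusted p = 0.00407) and ncbi_110522708 did not pass. In these 3 genes the locus with the most counts had reads in every library. The exostosin locus ncbi_110488384, numbered next to the yellow mutant ext1c locus, had 21, 20 and 20 wild-type counts against 11, 1 and 4 in the yellow mutant and fell by 2.17 (SE 0.53, edgeR adjusted p = 0.00465), with -3.29 without yellow mutant replicate 1. These symbol matches were added after the data were seen.

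Neighbours in gene order were called about as often as all loci. Of the 43 loci with NCBI numbers, 36 were placed in the RefSeq table, and their nearest tested neighbours on each side were 67 distinct loci. Untested loci and loci among the 59 were passed over, so a neighbour could lie as far as 45 places away (MFSD13A for Mosmo). UQCRC2 (ncbi_110538748) lay beside loci of both directions and was counted once for each, so that 68 comparisons were made. Of these 15 differed in the direction of the neighbouring locus among the 59, 17 in the opposite direction and 36 did not pass, a called share of 47.1% against 44.8%. Both neighbours of wnt11 (ncbi_110533847) were higher in the yellow mutant, EDA (ncbi_110533846), the ectodysplasin ligand gene, by 0.75 (SE 0.14, edgeR adjusted p = 0.000813) and IGBP1 (ncbi_110533848) by 0.82 (SE 0.10, edgeR adjusted p = 2.78e-05). GOLGA7B lay beside crtac1 (ncbi_110485474), a cartilage matrix gene that rose by 2.07 (SE 0.36, edgeR adjusted p = 0.000393). SAMD9L and Mosmo (ncbi_110538750), a regulator of Hedgehog signalling with 38, 16 and 12 yellow mutant counts against 0, 2 and 0, lay 3 places apart and were counted in different phenotypes.

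The split of reads among the 3 libraries of a phenotype was not used in the choice. Of the 59 loci, 54 had reads in all 3 libraries of their phenotype, 3 in 2 libraries and 2 in 1 library. A single library held more than 50% of the reads of 14 loci. In 8 of the 14 this was wild-type replicate 2, in 2 wild-type replicate 3, in 2 yellow mutant replicate 1 and in 2 yellow mutant replicate 2.

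For 2 assembled loci the missing libraries were filled by the locus with the next MSTRG number. The transposase-named locus MSTRG.12155 had 109 counts in wild-type replicate 2 and 0 in the other 5 libraries. The locus MSTRG.12156, of the same product name, had 0 there and 149, 126, 151, 148 and 155 counts in the other 5. Summed, the pair was at 7.80 CPM in wild-type replicate 2 and at 7.24 to 8.89 CPM over all libraries, so the sum did not separate the phenotypes. MSTRG.25509 had 64 and 76 counts in yellow mutant replicates 1 and 2 and 0 in the other 4 libraries, and MSTRG.25508 had 0 in those 2 and 84, 84, 110 and 92 elsewhere. The sum was 5.01 to 6.66 CPM in the wild type and 3.70 to 4.71 CPM in the yellow mutant. MSTRG.25508 did not pass (-1.88, SE 0.77, edgeR adjusted p = 0.063), but did without yellow mutant replicate 3, the only library of its phenotype with reads there (adjusted p = 6.03e-07), and stood at -1.26 without yellow mutant replicate 2. Such pairs were 2 of the 12 loci numbered next to 9 of the 16 assembled loci.

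Other assembled loci had a neighbour by number that was counted in both phenotypes. MSTRG.11540 had 63, 42 and 52 wild-type counts against 1, 2 and 0, and MSTRG.11539 had 33, 31 and 47 against 154, 127 and 157 and rose by 1.71 (SE 0.20, edgeR adjusted p = 1.47e-05). MSTRG.21700, a medium-chain acyl-CoA ligase-named locus, had 23, 16 and 24 wild-type counts against 0. On one side MSTRG.21699, named for another isoform of this ligase, had 53, 29 and 41 against 68, 72 and 54. It did not pass (0.39, SE 0.23, edgeR adjusted p = 0.179). This pair summed to 3.22 to 4.53 CPM in the wild type and 2.76 to 3.93 CPM in the yellow mutant, with overlap. On the other side MSTRG.21701, named for a monocarboxylate transporter, rose by 1.67 (SE 0.26, edgeR adjusted p = 0.000186). MSTRG.4778 was counted in 1 library, with 72 reads in yellow mutant replicate 1. Its neighbour MSTRG.4777 of the same unnamed product had 367 to 443 wild-type counts against 480 to 750 in the yellow mutant.

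Wild-type replicate 2 carried most reads of 4 loci for transport and detoxification. The gene slc22a6 (ncbi_110510178, oatx in the RefSeq table), of a family of organic anion transporters, had 3, 64 and 13 wild-type counts against 0, 1 and 1. SLC22A2 (ncbi_110529598), an organic cation transporter, had 10, 56 and 8 against 0, 1 and 1. The gene slc47a1 (ncbi_110503935, slc47a4 in the RefSeq table), for an exporter of toxins, had 6, 58 and 8 against 0, 1 and 0. The cytochrome P450 gene cyp2k1 (ncbi_110486985) had 7, 56 and 10 against 0, 0 and 1. In each, replicates 1 and 3 lay between 3 and 13 counts, above the yellow mutant libraries, and the threshold was reached through replicate 2. Of 6 further loci with the symbol cyp2k1, 4 were tested and all 4 were lower in the yellow mutant, without one library holding most of their wild-type reads. Among them ncbi_110532750 had 67, 56 and 41 counts against 1, 11 and 11 (log2 fold change -3.11, SE 0.42, edgeR adjusted p = 5.99e-05), and ncbi_110522408 had 121, 79 and 117 against 33, 51 and 35 (-1.68, SE 0.19, edgeR adjusted p = 1.34e-05). At ncbi_110486982, also tested, replicate 2 had the most wild-type counts, with 78, 121 and 66 against 28, 20 and 25. The untested ncbi_110486987 had 5, 16 and 1 against 0, 0 and 1. S100b (ncbi_110508472, S100-A11-like), for a calcium-binding protein, had 0, 60 and 2 counts against 0. The other tested locus of its product name, S100A13 (ncbi_110536110), had 9, 100 and 28 counts against 0, 4 and 14, and its log2 fold change of -3.25 (SE 0.88, edgeR adjusted p = 0.00886) became -1.81 without wild-type replicate 2 (adjusted p = 0.0831) and -4.75 without yellow mutant replicate 3.

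**Figure D4:**
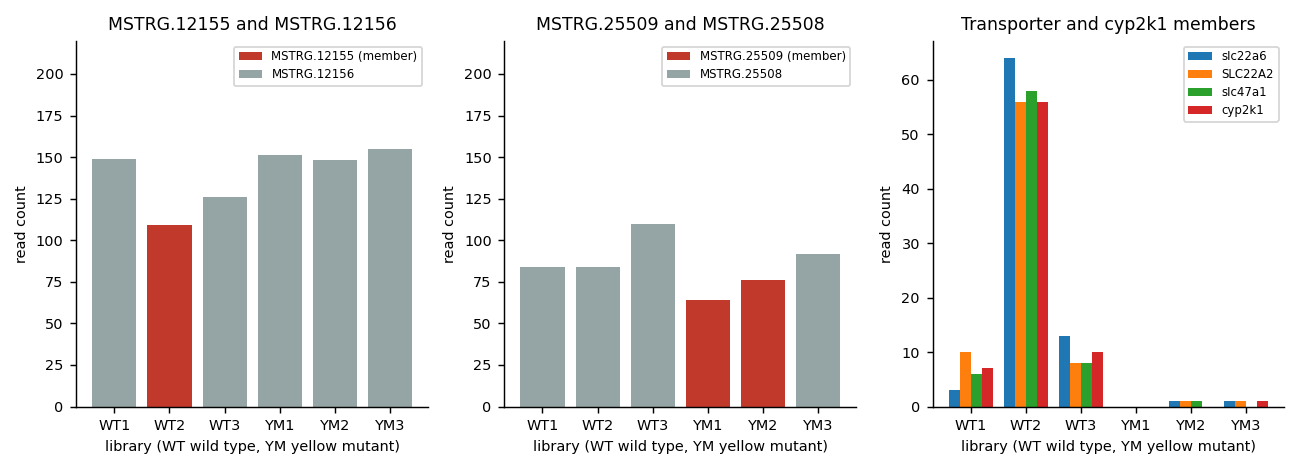
Read counts per library for 2 pairs of assembled loci, stacked, and for 4 wild-type loci, side by side. In the left and middle panels the red locus has reads in the libraries where the grey one is at 0, and in the right panel wild-type replicate 2 holds 56 to 64 counts of each locus against 3 to 13 in the other wild-type libraries.

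The same library stood apart in other genes known from kidney tubules, a list drawn up after these counts were seen. Of 70 loci found for 34 symbols, none of them among the 59, 41 had at least 10 counts and 9 had none. Wild-type replicate 2 was the highest library in 31 of the 41 and held over 50% of the CPM summed over the 6 libraries in 22. The median level of the 41 loci was 2.0 CPM in that library and between 0.116 and 0.363 CPM in the other 5, and their summed level was 193 CPM against 75.4 to 97.1 CPM. The sodium chloride cotransporter gene slc12a3 (ncbi_110494770) had 188 counts there and 0, 5, 2, 4 and 11 elsewhere, and the sodium glucose cotransporter gene SLC5A2 (ncbi_100136139) had 34 there and 2 and 0 elsewhere in the wild type. No locus was found under 6 of the symbols, PAX2 and CDH16 among them. The second slc22a6 locus (ncbi_110510119) had 24, 248 and 47 counts against 0, 7 and 5 and fell by 5.05 (SE 0.998, edgeR adjusted p = 0.00112), with -3.32 without wild-type replicate 2 and -5.64 without yellow mutant replicate 2. The part of this difference in the wild-type loci of the 59 was not tested beyond leaving the library out. Without it 23 loci met the rule in the wild-type direction. All were among the 34, which follows from the rule, as leaving out a wild-type library cannot raise a wild-type sum. Leaving out wild-type replicate 1 or 3 gave 26 or 27. The loci affected differed, since 8 wild-type loci had more than 50% of their reads in replicate 2 and 2 had them in replicate 3. Replicate 2 was also the library with the fewest counts, 15059101.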

How the data were processed

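Dorsal skin RNA was extracted with Trizol and sequenced as Illumina libraries, per the labels' protocols, in 3 libraries per phenotype, grouped by the labels. The submitters' processing notes name TopHat2 2.1.1 and Bowtie2 2.2.8 without their settings. Neither the counting tool nor the treatment of shared reads, the strand, the build or the annotation was given in these sources. Per the file headers, the authors deposited a raw read count and an FPKM value for each gene and library. Their deposited log2 fold changes, p-values and FDR values, per the file headers, were not used. It held 0 per-sample columns that could not be mapped.

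The loci, the lists and the tests were chosen with earlier results of these data known. Loci named are the 10 with the highest mean CPM and a product name in each direction, their counterparts of the same product name, the opposite loci with the smallest adjusted p, and those nearest the thresholds. Other loci, and the kidney list, were named after their values were seen. Counts were fitted over all loci with edgeR 4.0.16 (filterByExpr, TMM, glmQLFit, glmQLFTest) in R 4.3.3 without covariates, and adjusted with the Benjamini-Hochberg method over 30691 loci at a threshold of 0.05. The procedure was tested on simulated data. A fold against a group with no read uses a floor of 3 counts over the group. Ratios with 1 to 3 counts carry exact 95% Clopper-Pearson intervals. Floors and intervals cover counting error only, and they do not allow for the choice of loci by these same counts. Neighbours were taken from the RefSeq gene table of assembly USDA_OmykA_1.1, and no coordinates are given because the build of the counts is not named. Alternatives were DESeq2 1.42.0, limma 3.58.1 on log2(FPKM + 0.5) and log2(FPKM + 0.1), library totals without TMM, no filter, a replicate block, other thresholds, other matching of names, and leaving out each library. The choice of loci was also repeated on counts scaled to the mean TMM library size. Of the 59 loci, 1 is counted in the totals but not reported here.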

Additional observations from a re-analysis of the deposited data

How the results depend on the processing

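The number of loci counted in one phenotype followed the thresholds. With 0 counts required in the lower phenotype, 19 wild-type and 10 yellow mutant loci remained, with at least 30 counts in the higher sum 59 and 57, and with at least 120 counts 16 and 12. The rule itself used unscaled sums. With counts scaled to the mean TMM library size, 38 wild-type and 17 yellow mutant loci met it, in place of 34 and 25. All 34 wild-type loci were kept, but only 17 of the 25 yellow mutant loci. Leaving out 1 library at a time gave 23 to 53 wild-type and 14 to 38 yellow mutant loci, since the thresholds on sums were kept. Over all genes, 13737 calls became 11626 to 12507 without 1 library, with 5598 to 5982 higher and 6028 to 6531 lower. The split moved with the scaling, and library totals without TMM gave 10805 higher and 4544 lower genes (70.4% higher against 48.5%), and the median log2 fold change moved from -0.0029 to 0.196. With limma, 10357 were higher and 4269 lower (pseudocount 0.5), and 10308 and 4245 (pseudocount 0.1). The TMM factors were 0.92 to 0.95 in the wild type and 1.06 to 1.08 in the yellow mutant, and the limma fits used FPKM without TMM. The cause of this difference in TMM factors was not tested. Among loci of the same product name, 13 to 14 went the same way and 6 to 8 the opposite way without 1 library. Against 14 in the same direction and 9 opposite, there were 21 and 24 with names stripped of suffixes, and 17 and 16 with matching by symbol. Product names with a summed ratio under 1.5 numbered 5 with library totals alone, 17 with names stripped of suffixes, and 5 to 8 without 1 library. Among neighbours, 13 to 16 went the same way and 13 to 19 the opposite way without 1 library. AKIRIN2 (ncbi_100499589), beside GABRR1, was at 0.028 and 0.029 in the limma fits, against -0.35. With library totals alone and in limma, the calls at TSEN54 ncbi_110538547, DUT ncbi_110506799, MSTRG.17026 and ncbi_110534770 were lost, and TGM1 ncbi_110508468, Gga3 ncbi_110485812 and CXCR1 ncbi_110495453 passed. In DESeq2, S100A13 ncbi_110536110 did not pass (adjusted p = 0.0777). MSTRG.25508 passed with no filter (adjusted p = 0.0284) and in limma (0.0321 and 0.0342).

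Replicate numbers are shared by the phenotypes, but same-numbered libraries deviated together only weakly (r from 0.0137 to 0.080 over 3 pairs, none above 0.1), although each library correlated best with its own number. With the replicate number as a block, 13868 genes were called, 14 loci of the same product name went the same way and 8 the opposite way, and neighbours split 15 to 18. Under the block MSTRG.25508 passed (adjusted p = 0.0122) and ncbi_110534770 did not (0.0507). Counts near the thresholds are limited by depth, since a sum of 60 over 3 libraries against 3 leaves wide intervals.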
